A study of Loxodonta africana with 12 samples.

Results

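The comparison described here is that of irradiated with untreated African elephant (Loxodonta africana) blood at 24 h, read across all genes. Its members were chosen by label: the 3 libraries given 2 Gy and sampled at 24 h and the 3 untreated libraries of the same time, 6 of the 12 libraries of the series. The other 6 are the same pair of groups at 5 h, and they enter below only where the late effect is set against the early one. Total RNA was made into stranded Illumina libraries after ribosomal RNA was depleted. No genotype, age, radiation source or culture condition is given in the labels, nor whether blood was irradiated inside or outside the animal. The labels also do not say whether replicates are separate animals, draws or cultures, so every p-value covers only the differences among these libraries, and those may be technical.

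Ionizing radiation breaks DNA, and the ATM kinase that senses the breaks leads to stabilisation of the transcription factor p53. p53 then raises genes that halt the cell cycle, repair DNA, start apoptosis and, through MDM2, degrade p53 itself. Blood is a mixture of cell types that differ in radiosensitivity, and resting B lymphocytes are among the cells known to die readily after irradiation. In bulk RNA of this kind, fewer cells of a type and less RNA per cell of that type cannot be told apart.

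Library totals were 22924260, 30807368 and 37356501 counts in the untreated group and 23805619, 18916428 and 18022475 counts in the irradiated group. Within a group, log2 CPM (read counts divided by the library total, TMM-scaled) correlated at 0.976 to 0.989 between libraries, across genes. The labelled tissue was checked against defining markers of its cells. Leukocyte markers were plentiful in untreated libraries: markers of monocytes and macrophages summed to 3928 to 4576 CPM, those of T cells to 669 to 753 and those of B cells to 475 to 586. The erythroid markers tested summed to only 5.64 to 11.7 CPM in the untreated and 7.60 to 23.1 CPM in the irradiated libraries. Stromal and endothelial markers summed to 907 to 1160 CPM in the untreated libraries, of which PECAM1, which platelets and leukocytes also express, made up 929, 1118 and 862 CPM. PDGFRB held 37.3, 33.8 and 35.1 CPM and CDH5 6.85, 6.12 and 7.61 CPM, while COL1A1, COL1A2, COL3A1 and KDR were each under 1 CPM in the untreated mean. Untreated library 2 and irradiated library 1 shared high values of some myeloid genes, chosen here after their values were seen. CD163, a macrophage scavenger receptor, stood at 254, 660 and 202 CPM in the untreated and 1430, 594 and 484 CPM in the irradiated libraries. Its groups overlapped, and it did not pass the test (adjusted p = 0.28). The test does not pair libraries, so where such shared values make groups overlap, a missing call does not show a missing effect.

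Of 16406 gene rows, 14373 had enough counts to be tested, and 968 (6.73%) passed edgeR's quasi-likelihood test at a Benjamini-Hochberg adjusted p below 0.05. Irradiated libraries were higher at 258 of them (1.80% of those tested) and lower at 710 (4.94%). These shares are the background to the counts of list members given below. The median log2 fold change was 0.81 among the genes that rose and -0.82 among those that fell, against 0.01 over all genes tested. Rises of over 2-fold numbered 106 and falls of over 2-fold 267. Beyond 4-fold there were 35 rises and 64 falls. The number of calls changed when 1 library was left out. Passing genes numbered 416, 548 and 369 without untreated library 1, 2 and 3. They numbered 1061, 293 and 462 without irradiated library 1, 2 and 3. Each of these fits has 1 library fewer, so lost precision and the weight of a single library cannot be told apart. In all 6 of these smaller fits 67 genes stayed higher and 188 stayed lower. Calls were few among weakly expressed genes. The 2032 genes with a mean under 1 CPM gave 4 rises and 12 falls, and their median log2 fold change was 0.48, whereas the 6220 genes between 10 and 100 CPM had a median of -0.04.

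**Figure D1:**
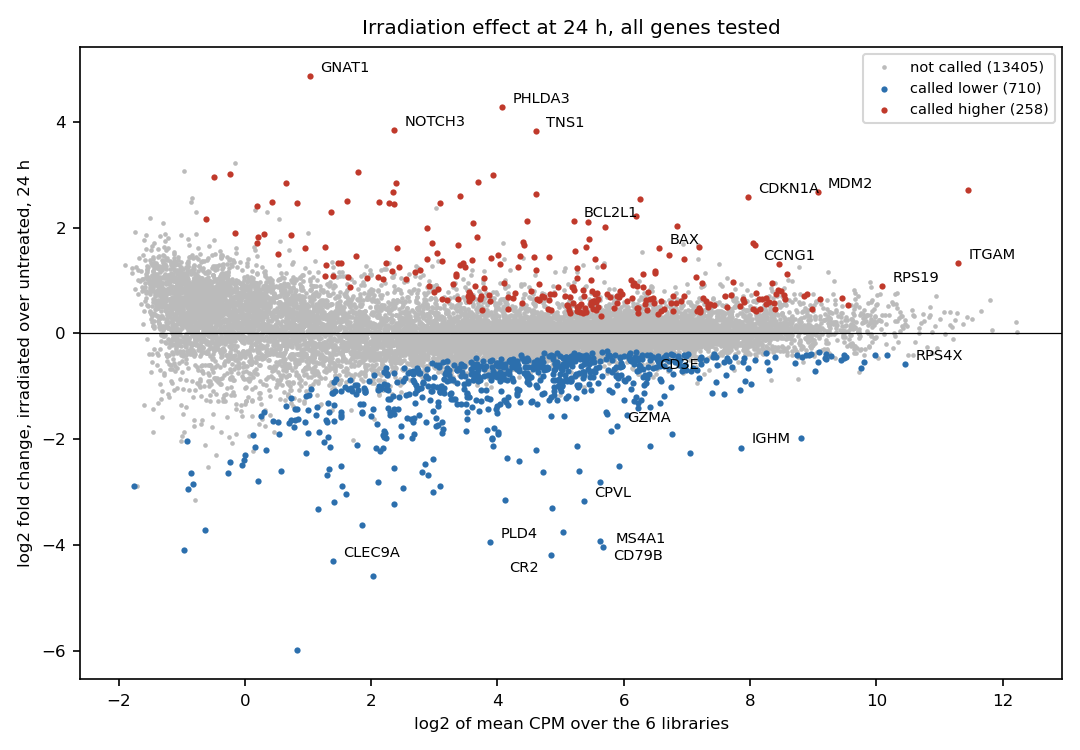
Each point is 1 of the 14373 genes tested, with the log2 of its mean CPM over the 6 libraries on the horizontal axis and its log2 fold change (irradiated over untreated) on the vertical axis. The 710 genes that fell (blue) outnumber the 258 that rose (red), and ITGAM and MDM2 are abundant genes that rose.

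The genes with the largest rises had untreated means from 0.135 CPM (GNAT1) to 146 CPM (MDM2), with GNAT1, NOTCH3, GP9 and SULF2 under 1 CPM. GNAT1, the alpha subunit of rod transducin, stood at 0.201, 0.0993 and 0.105 CPM in the untreated and 5.35, 2.67 and 3.81 CPM in the irradiated libraries. The groups were far apart, at a fitted log2 fold change of 4.87 ± 0.44 (SE, adjusted p = 0.0018). NOTCH3, a Notch receptor usually found on vascular smooth muscle, went from 1.01, 0.265 and 0.735 to 6.28, 11.6 and 10.9 CPM (log2 fold change 3.85 ± 0.45, adjusted p = 0.0046). TNS1, which links integrins to actin, went from 4.63, 2.25 and 2.91 to 40.8, 46.9 and 49.1 CPM (log2 fold change 3.82 ± 0.25). Each of these 3 genes passed without any single library. SDK2 (log2 fold change 2.60), IZUMO4 (2.87), PERM1 (2.64) and GP9 (2.84), the last a subunit of the platelet receptor for von Willebrand factor, did as well. SULF2, an extracellular sulfatase, rose by 3.05 on the log2 scale but reached only an adjusted p of 0.064 without irradiated library 2. RARRES1 (2.66) lost its call without untreated library 1 (adjusted p = 0.053), irradiated library 2 (0.074) or irradiated library 3 (0.052).

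Among the deepest falls were genes of B cells and dendritic cells, described below by group, and several genes outside the lists. FAM129C, a gene known from B cells, held 55.6, 58.7 and 69.8 CPM in the untreated and 4.29, 3.83 and 5.66 CPM in the irradiated libraries (log2 fold change -3.74 ± 0.17, adjusted p = 0.00017). CPVL, a carboxypeptidase known from macrophages and dendritic cells, held 70.3, 88.5 and 64.0 against 5.22, 10.2 and 9.59 CPM (log2 fold change -3.16 ± 0.26). ATP8B1, a phospholipid flippase, held 25.1, 19.9 and 48.4 against 2.65, 2.83 and 5.26 CPM (log2 fold change -3.14 ± 0.42). The groups of all 3 were several-fold apart, with ATP8B1 the most variable. SYBU, which carries syntaxin cargo on kinesin, was lower at a log2 fold change of -3.32.

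**Figure D2:**
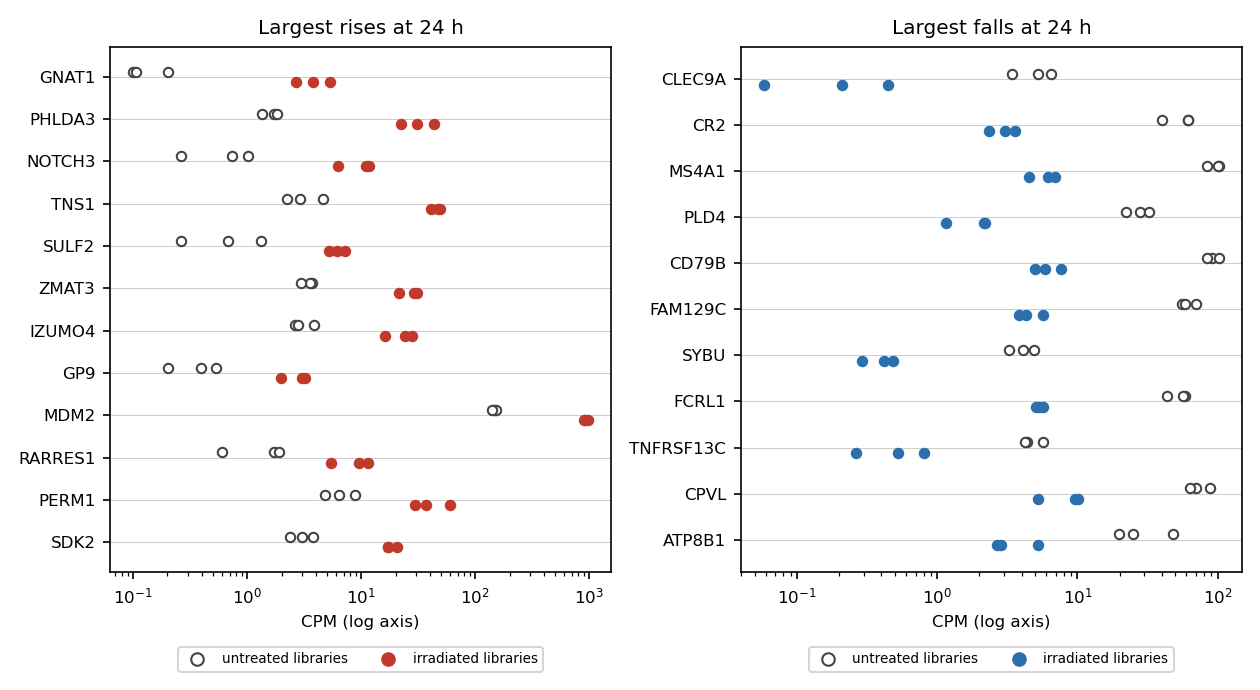
CPM on a log axis in each untreated library (open circles) and each irradiated library (filled circles) for 12 genes with a symbol that rose most (left) and 11 that fell most (right) among those with a mean of at least 1 CPM. The groups do not overlap for any gene drawn, from GNAT1 (0.0993 to 0.201 against 2.67 to 5.35 CPM) to ATP8B1 (19.9 to 48.4 against 2.65 to 5.26 CPM).

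At 24 h genes of the p53 feedback loop were raised. MDM2, the ubiquitin ligase that degrades p53 (scaffold 2, 59036999 to 59064440, plus strand of the assembly named in the file headers), held 145, 153 and 139 CPM in the untreated and 981, 910 and 900 CPM in the irradiated libraries. No other gene of the p53 lists that passed gained more CPM, and the log2 fold change of MDM2 was 2.68 ± 0.10 (adjusted p = 0.00017). On the length-scaled FPKM values, MDM2 went from 101 ± 4.95 to 611 ± 23.9 (SD, n = 3 each). CCNG1, a cyclin that acts on MDM2 through a phosphatase, rose from 122, 123 and 126 to 391, 427 and 393 CPM. PPM1D, the phosphatase that switches ATM signalling off, rose from 37.6, 36.4 and 39.2 to 56.0, 55.9 and 58.3 CPM (log2 fold change 0.59 ± 0.08, adjusted p = 0.008). Of the 9 feedback genes 4 rose and 0 fell, with a median log2 fold change of 0.34. The fourth, PTP4A1, was only 0.37 higher and passed in none of the 6 smaller fits, at adjusted p from 0.079 to 0.19. ATM itself held 295, 308 and 313 CPM untreated and 283, 270 and 269 CPM irradiated, a log2 fold change of -0.16 that did not pass (adjusted p = 0.34).

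Of 14 p53 targets of growth arrest, 3 rose and 0 fell, with a median log2 fold change of 0.67, and 5 rose without irradiated library 1. ZMAT3, an RNA-binding growth inhibitor, rose most, from 3.66, 3.57 and 2.97 to 21.3, 30.6 and 28.9 CPM (log2 fold change 2.99 ± 0.18, adjusted p = 0.00032). CDKN1A, the inhibitor of cyclin-dependent kinases known as p21 (scaffold 0, 128580859 to 128583266, minus strand), held 57.8, 85.6 and 71.7 against 502, 371 and 411 CPM. Its log2 fold change was 2.58 ± 0.18 (adjusted p = 0.00062). By FPKM it reached 838 ± 109 in the irradiated group (SD, n = 3), the highest of these 3 genes, against 209 ± 31.3 for TP53INP1 and 30.2 ± 6.27 for ZMAT3. The other 11 did not pass. PLK2, BTG2 and GADD45A, named after their values were seen, ran high in untreated library 3 and irradiated library 3: PLK2 held 884, 594 and 1335 CPM untreated and 901, 1451 and 2360 CPM irradiated (adjusted p = 0.34).

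Among 12 p53 targets of cell death, BAX, which permeabilises mitochondria, and the nuclease AEN rose, and 0 fell. BAX held 41.4, 51.8 and 47.1 against 139, 139 and 150 CPM (log2 fold change 1.61 ± 0.11). AEN held 16.6, 22.9 and 22.6 against 72.2, 80.2 and 99.2 CPM (2.02 ± 0.17). In both genes the lowest irradiated library exceeded the highest untreated one by more than 2-fold. The death receptor FAS, named after its values were seen, overlapped between groups at 59.4, 84.7 and 61.0 against 128, 79.4 and 73.8 CPM (adjusted p = 0.33). Untreated library 2 and irradiated library 1, which shared high values of some myeloid genes, held the highest FAS value of their groups. Of 8 repair targets, RPS27L, a ribosomal protein paralog, rose from 134, 133 and 123 to 437, 421 and 377 CPM, and POLH, the polymerase that bypasses DNA lesions, rose from 22.9, 20.4 and 25.1 to 43.5, 55.6 and 62.3 CPM. The repair gene DDB2, also named after its values were seen, stayed between 49.9 and 56.6 CPM in all 6 libraries.

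Targets with roles in metabolism and growth control gave 2 rises and 1 fall of 30, beside 1.80% and 4.94% of all genes tested. Their median log2 fold change was 0.08. PHLDA3, which blocks AKT at the membrane, held 1.73, 1.36 and 1.84 CPM untreated and 22.2, 30.6 and 43.6 CPM irradiated (log2 fold change 4.28 ± 0.29, adjusted p = 0.00053). TM7SF3 was lower, from 94.8, 87.8 and 93.2 to 60.4, 57.9 and 51.2 CPM. SESN2, a stress sensor upstream of mTOR, was 1.19 higher, but lost its call without untreated library 1 or 2 or irradiated library 2 or 3 (adjusted p from 0.10 to 0.14). Of 38 further targets 5 were higher and 3 lower, with 2 to 4 higher and 0 to 3 lower when any 1 library was left out. The plexin PLXNB2 rose from 26.2, 18.7 and 32.6 to 96.3, 131 and 136 CPM, and it and TNS1 kept their calls without any single library. Of the 3 that fell, TLR3, the receptor for double-stranded RNA, was lower by a log2 fold change of -1.20 and SLC12A4 by -0.63, and each lost its call without several libraries (adjusted p up to 0.063 and 0.099). Over the 6 groups of targets the count of rises was 18 of 111, beside 1.80% of all genes tested, but they were listed as radiation or p53 targets with earlier results known.

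B cell surface genes had the lowest median of the lists. Of 22 surface and receptor genes tested 15 fell and 0 rose, with a median log2 fold change of -1.86, and 13 to 15 fell when any 1 library was left out. The share of falls over all genes was 4.94%. MS4A1, which encodes CD20 (scaffold 71, 9060073 to 9066418, minus strand), held 102, 84.1 and 102 CPM untreated and 6.15, 4.51 and 6.87 CPM irradiated. FCRL1, an Fc receptor-like B cell protein, held 58.9, 43.7 and 56.8 against 5.71, 5.29 and 5.08 CPM (log2 fold change -3.30 ± 0.15, adjusted p = 0.00017). In both, the 3 irradiated libraries lay close together and far below the untreated ones.

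Genes of the antigen receptor and complement receptor fell by different amounts, and differences between genes were not tested. CD79B, which signals for the B cell receptor, held 91.3, 84.5 and 103 against 4.95, 5.87 and 7.62 CPM (log2 fold change -3.92 ± 0.18). Its partner CD79A, named after its values were seen, held 24.5, 21.3 and 26.6 against 3.94, 6.5 and 7.85 CPM (-1.99 ± 0.24). CR2, the complement receptor CD21, held 61.9, 39.9 and 61.6 against 3.05, 2.36 and 3.58 CPM (-4.18 ± 0.24). TNFRSF13C, the receptor for the survival factor BAFF, had a log2 fold change of -3.19 ± 0.37. IGHM, the heavy chain of IgM, held 384, 325 and 427 against 80.7, 102 and 71.9 CPM (log2 fold change -2.15 ± 0.17). By FPKM, which allows levels of different genes to be compared, IGHM was still at 58.6 ± 12.7 after irradiation, above 8.70 ± 1.91 for CD79B and 6.44 ± 1.18 for MS4A1 (SD, n = 3 each). FCER2, the low affinity IgE receptor, which macrophages also express, was named after its values were seen: at 406, 978 and 292 against 606, 186 and 129 CPM its groups overlapped (adjusted p = 0.50). Its highest value in each group was in untreated library 2 and irradiated library 1.

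Of 16 B cell transcription factors and signalling genes 8 fell and 0 rose, with a median of -0.55, and 7 or 8 fell without any 1 library. PAX5, the factor that holds B cell identity, held 13.6, 11 and 17.5 against 1.64, 1.68 and 1.96 CPM (log2 fold change -3.0 ± 0.22, adjusted p = 0.00071). POU2AF1, a coactivator of immunoglobulin genes, had a log2 fold change of -2.37 ± 0.17, BCL11A of -1.59 ± 0.17 and the kinase BLK of -1.48 ± 0.16. All 4 passed without any single library. Plasma cell genes did not move as 1 group, with 1 of 8 higher and 1 lower. IGJ, the joining chain of IgM and IgA, fell from 131, 172 and 112 to 63.1, 60.1 and 60.1 CPM. SLAMF7, found on plasma cells but also on NK cells and activated macrophages, rose from 181, 239 and 191 to 543, 456 and 511 CPM (log2 fold change 1.30 ± 0.14, adjusted p = 0.0029).

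NK and cytotoxic genes had the second lowest median. Of 17 tested 8 fell and 0 rose, with a median of -0.80, and 6 to 8 fell without any 1 library. GZMA, a granule protease, held 95.4, 106 and 72.0 against 32.2, 28.1 and 21.3 CPM (log2 fold change -1.74 ± 0.20, adjusted p = 0.004). CTSW, a cathepsin of cytotoxic cells, held 105, 110 and 111 against 37.3, 50.9 and 48.3 CPM (-1.25 ± 0.13). GZMK, another granule protease, was lower by a log2 fold change of -1.24 ± 0.13, and the fractalkine receptor CX3CR1 by -0.80 ± 0.09. All irradiated libraries lay below all untreated ones in 13 of the 17 genes, beside 17.9% of all genes tested.

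T cell genes had a median nearer to 0. Of 31 tested 6 fell and 0 rose, with a median of -0.41, beside 4.94% of all genes tested that fell. Irradiated libraries lay wholly below untreated ones in 17, beside 17.9% of all genes. The count of falls was 3 without untreated library 1, 2 or 3 and 2 without irradiated library 2. CD3E, a chain of the T cell receptor complex, held 108, 101 and 110 against 54.0, 67.1 and 66.9 CPM (log2 fold change -0.76 ± 0.11, adjusted p = 0.011). CD27, a costimulatory receptor shared with memory B cells, held 36.4, 31.6 and 28.8 against 16.2, 18 and 15 CPM (-0.98 ± 0.12). These 2 genes passed without any single library. IL7R, the receptor for the survival cytokine IL-7, was lower by -0.68 ± 0.10 and missed the threshold without irradiated library 2 (adjusted p = 0.070). CD8B (-0.79 ± 0.15) kept its call only without irradiated library 1. Interleukins, chemokines and their receptors did not move as 1 group. Of 43 tested 6 fell and 1 rose, beside 4.94% and 1.80% of all genes tested, with a median of 0.02. When any 1 library was left out 4 or 5 fell. CXCR3, which guides activated T and NK cells, held 10.2, 11.2 and 9.0 against 2.21, 3.09 and 2.83 CPM (log2 fold change -1.91 ± 0.18, adjusted p = 0.002). CXCR6 (-1.20), the gut-homing receptor CCR9 (-1.31) and IL18RAP (-1.09), a chain of the IL-18 receptor, also fell, and all 4 passed without any single library.

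Dendritic cell genes split. In the conventional list 2 of 18 fell, 0 rose and the median was 0.06. CLEC9A, the receptor for dead cells on cross-presenting dendritic cells, held 5.20, 6.45 and 3.41 against 0.442, 0.210 and 0.0577 CPM (log2 fold change -4.30 ± 0.52, adjusted p = 0.0054). WDFY4, needed for cross-presentation and also expressed by B cells, held 98.2, 93.9 and 102 against 29.5, 36.4 and 35.6 CPM (-1.54 ± 0.11). In contrast CD1C and FLT3, named after their values were seen, overlapped between groups, FLT3 at 196, 242 and 183 against 228, 180 and 182 CPM. In the plasmacytoid list 3 of 11 fell, 0 rose and the median was -0.04. PLD4, an endosomal nuclease, held 28.2, 22.3 and 32.6 against 1.15, 2.15 and 2.19 CPM (log2 fold change -3.93 ± 0.27). TCF4, the factor that drives plasmacytoid identity and is also active in B cells, held 82.5, 77.9 and 76.9 against 26.1, 28.7 and 28.5 CPM (-1.51 ± 0.09). DNASE1L3, a secreted DNase, was lower by -2.78 ± 0.37. The B cell markers fell in the same libraries, from 475 to 586 CPM to 73.3 to 93.1 CPM in sum, with 11 of 11 tested lower, and their part in these falls was not tested. Of 19 genes of MHC class II and antigen processing, 2 fell, but without any 1 library other than irradiated library 1 only 1 did, since HLA-DOB (log2 fold change -0.76) lost its call (adjusted p up to 0.11). HLA-DOA, a modulator of peptide loading known from B cells, held 24.8, 24.6 and 22.7 against 6.5, 5.45 and 6.35 CPM (log2 fold change -1.98 ± 0.12). The invariant chain CD74, named after its values were seen, overlapped between groups (log2 fold change -0.16, adjusted p = 0.45).

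**Figure D3:**
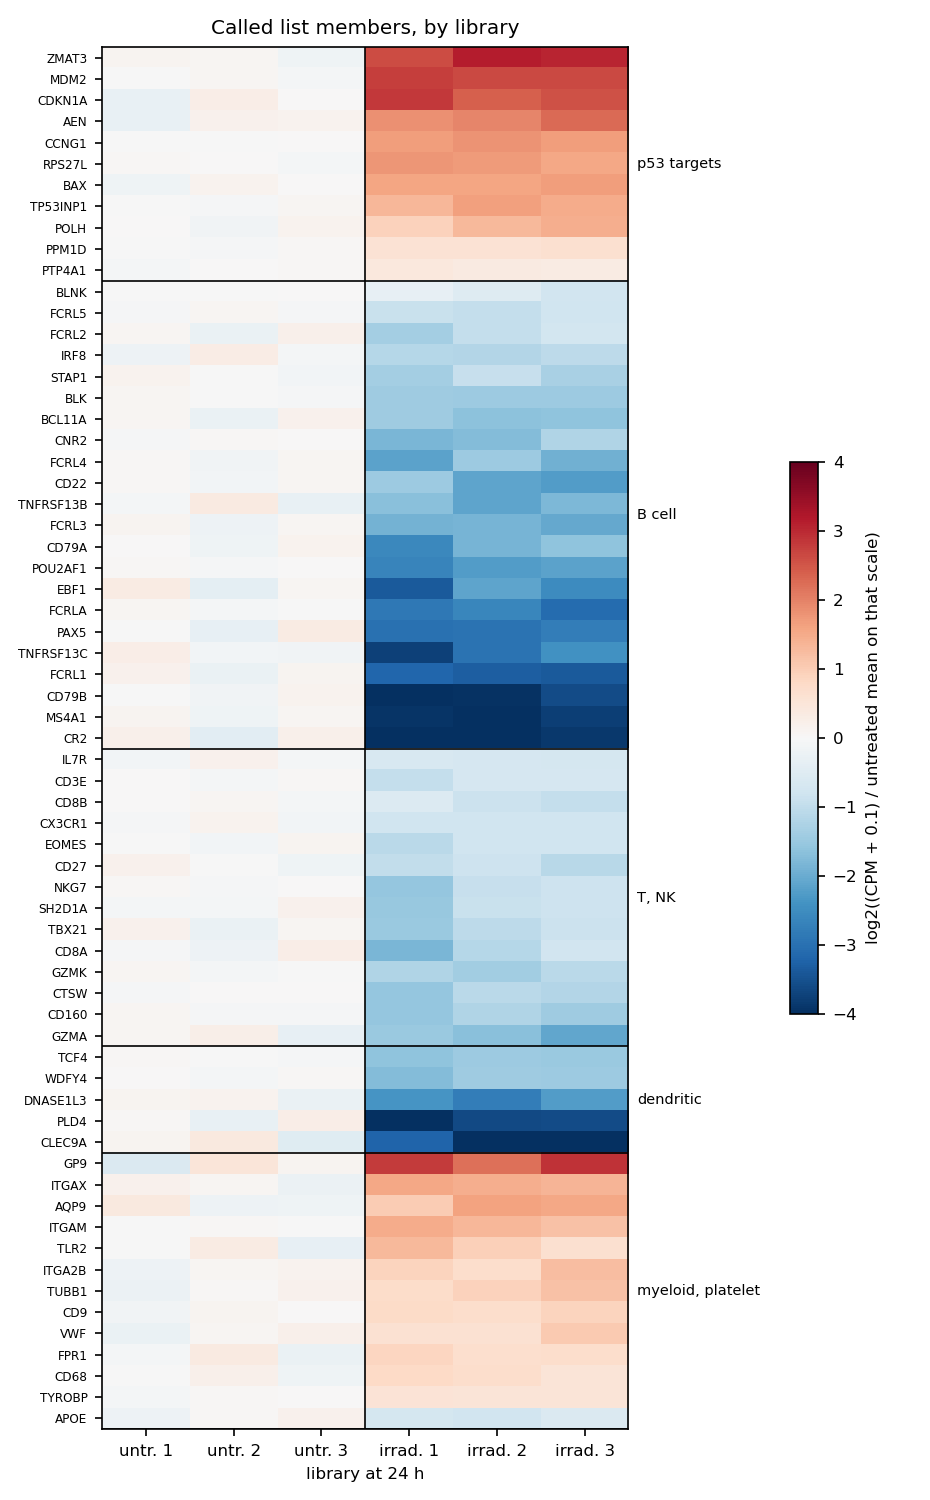
Colour gives the log2 of CPM plus 0.1 relative to the untreated mean on that scale, for 65 list members that passed the test (rows) in each of the 6 libraries at 24 h (columns), grouped by cell type or pathway. The p53 targets drawn, those of the feedback, growth arrest, cell death and repair lists, are red in all 3 irradiated libraries, the B cell, T, NK and dendritic genes are blue, and irradiated library 2 and 3 are paler than library 1 for several T and NK genes such as CD8A.

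Several myeloid genes were higher. Of 25 monocyte and macrophage genes 5 rose and 1 fell, with a median log2 fold change of 0.39, and only 2 rose without untreated library 1, untreated library 3 or irradiated library 2. ITGAM, the CD11b chain of the complement receptor on monocytes and neutrophils (scaffold 65, 12549297 to 12583634, plus strand), held 1408, 1495 and 1409 against 4015, 3591 and 3231 CPM. It had the largest gain in CPM of any gene with a symbol that passed, at a log2 fold change of 1.33 ± 0.11 (adjusted p = 0.0014). ITGAX, the CD11c chain, held 16.9, 15.6 and 12.7 against 43.5, 41.5 and 38.2 CPM (1.45 ± 0.13). CD68 (0.66) and the adaptor TYROBP (0.52) were higher, but each kept its call in only 2 of the 6 smaller fits, with adjusted p up to 0.13 and 0.092. APOE, a macrophage lipid carrier, was lower by a log2 fold change of -0.69 and lost its call without untreated library 2 or 3 or irradiated library 2 (adjusted p from 0.067 to 0.10). CSF1R, which encodes the macrophage growth factor receptor and was named after its values were seen, stayed between 1529 and 1731 CPM in all 6 libraries. SLC11A1, a metal transporter of phagosomes, held 206, 305 and 213 against 588, 466 and 519 CPM, and reached an adjusted p of 0.056 without untreated library 1 and 0.060 without untreated library 3.

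Neutrophil genes gave 2 rises of 18, AQP9 and FPR1, neither of which passed in all 6 smaller fits, where 0 to 2 members rose: 0 without untreated library 3 or irradiated library 2 and 1 without untreated library 1 or irradiated library 3. AQP9, a glycerol channel, held 5.20, 3.44 and 3.52 against 8.23, 12.2 and 11.8 CPM, with an adjusted p of 0.054 without untreated library 3 and 0.073 without irradiated library 2. FPR1, the formyl peptide receptor, passed only without untreated library 2. Platelet genes were higher in 5 of 19, with a median of 0.77 and irradiated libraries wholly above untreated ones in 13, beside 9.52% of all genes tested. The count of rises was 2 or 3 without any 1 library other than irradiated library 1. TUBB1, the platelet tubulin, held 41.6, 50.4 and 54.3 against 80.9, 92.3 and 109 CPM (log2 fold change 0.94 ± 0.15), and reached an adjusted p of 0.062 without irradiated library 2. ITGA2B, the fibrinogen receptor chain, was 0.96 ± 0.17 higher and lost its call without untreated library 1 or 2 or irradiated library 3 (adjusted p from 0.053 to 0.061). Of 13 erythroid genes 1 was higher, beside 1.80% of all genes tested, and 0 or 1 when any 1 library was left out. Their median was 0.89, with 11 above 0. Irradiated libraries lay wholly above untreated ones in 5 and wholly below in 2, beside 9.52% and 17.9% of all genes tested. The sum of marker CPM moved the same way in the myeloid and platelet classes: 3928 to 4576 against 6348 to 8101 for monocytes and macrophages, 385 to 453 against 675 to 807 for neutrophils and 56.7 to 72.7 against 118 to 150 for platelets. Abundant members weigh most in these sums: mean CPM went from 1437 to 3612 for ITGAM, 281 to 464 for FPR1 and 48.8 to 94.0 for TUBB1. Of the markers summed, 3 of 9, 2 of 7 and 3 of 5 rose and 0 fell. CPM are shares of a library, and the part that falling lymphocyte transcripts have in these rises was not tested.

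**Figure D4:**
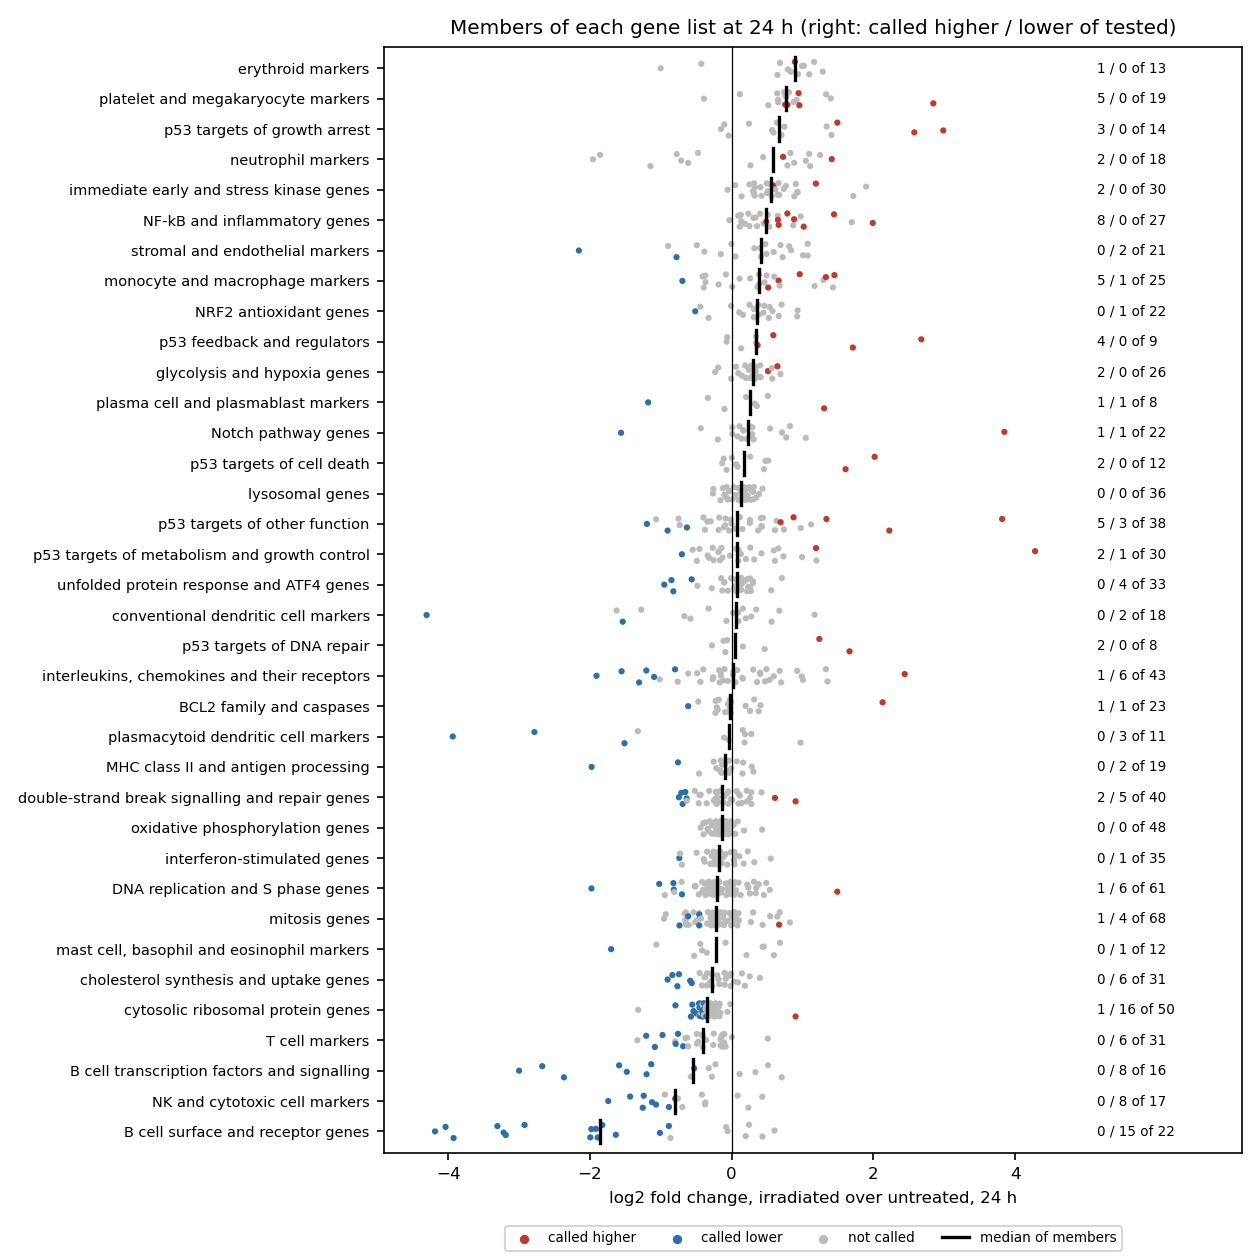
Log2 fold changes (horizontal axis, irradiated over untreated at 24 h) of the members of 36 gene lists, with genes that rose in red, genes that fell in blue, the others in grey and the median as a black bar. The 2 B cell lists and the NK list lie at the bottom with medians of -1.86, -0.55 and -0.80, and the counts at the right give rises and falls of the number tested.

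Inflammatory genes rose in part. Of 27 NF-kB and inflammatory genes 8 rose and 0 fell, beside 1.80% and 4.94% of all genes tested, with a median of 0.49. But the count of rises was 2 without untreated library 1 and 4 without untreated library 3. It was 1 without irradiated library 2 and 4 without irradiated library 3. IL23A, a subunit of interleukin 23, held 58.2, 65.5 and 59.4 against 107, 95.2 and 113 CPM (log2 fold change 0.79 ± 0.10, adjusted p = 0.007), and was the 1 member that passed in every smaller fit. IL6 held 3.75, 2.25 and 2.94 against 7.12, 13.1 and 15.3 CPM, with an adjusted p of 0.065 without irradiated library 2. SERPINB2 (1.44) and the prostaglandin synthase PTGS2 (0.66) were also higher, and both lost their calls without untreated library 1 or irradiated library 2. IFNG, the interferon of T and NK cells, was higher at 1.65, 0.861 and 2.23 against 5.35, 8.28 and 12.5 CPM (log2 fold change 2.44 ± 0.42, adjusted p = 0.019), but missed the threshold without untreated library 1 (0.061) or irradiated library 2 (0.070). Of 35 interferon-stimulated genes 0 rose and 1 fell, CXCL11, which passed in none of the 6 smaller fits, and the median was -0.18. At an unadjusted p under 0.05, 1 was higher and 3 were lower, and DESeq2 called 0 higher and 2 lower.

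Immediate early genes were above 0 in 29 of 30, with a median of 0.55, yet 2 passed. ATF3, a stress-induced factor, held 53.3, 54.6 and 57.6 against 125, 110 and 142 CPM (log2 fold change 1.19 ± 0.11, adjusted p = 0.0021) and passed without any single library. FOSL2 was 0.59 ± 0.13 higher and passed only without irradiated library 1, when 4 members passed. The list summed to 5830, 4985 and 8170 CPM in the untreated and 5974, 8432 and 13005 CPM in the irradiated libraries, so irradiated library 1 lay within the untreated range. Untreated library 2 and irradiated library 1 held the lowest sum of their groups, and the libraries numbered 3 held the highest. A pairing of untreated library 2 with irradiated library 1 was not tested.

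Of 40 genes of double-strand break signalling and repair 5 fell and 2 rose, with a median of -0.14. Irradiated libraries lay wholly below the untreated ones in 17, beside 17.9% of all genes. PARP1, which marks DNA breaks, held 177, 161 and 163 against 98.8, 108 and 99.5 CPM (log2 fold change -0.71 ± 0.09, adjusted p = 0.0059). BARD1, the partner of BRCA1, held 26.8, 27.1 and 26.2 against 15.6, 17.2 and 15 CPM (-0.75 ± 0.10). MAD2L2, which steers the choice of repair pathway, was lower by -0.64 and missed the threshold without untreated library 3 or irradiated library 2. The count of falls was 2 without untreated library 3 or irradiated library 2 and 3 without untreated library 1 or 2 or irradiated library 3, and 0 rose without untreated library 1 or 3 or irradiated library 2 or 3.

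Of 61 DNA replication and S phase genes 6 fell and 1 rose, beside 4.94% and 1.80% of all genes tested. E2F1, a factor that starts S phase, held 10.2, 9.0 and 10.6 against 1.99, 1.89 and 3.75 CPM (log2 fold change -1.98 ± 0.27, adjusted p = 0.0085). The D-type cyclin CCND2 was lower by -1.02 ± 0.11 and MCM3, a subunit of the replicative helicase, by -0.82 ± 0.09. DNA2, a helicase and nuclease at broken forks, rose from 8.62, 8.37 and 8.43 to 20.7, 26.6 and 24.1 CPM (1.49 ± 0.12, adjusted p = 0.0013). These 4 genes passed without any single library. Of 68 mitosis genes 4 fell and 1 rose (5.88% and 1.47%), near the shares of all genes tested (4.94% and 1.80%). Without untreated library 1 or 3 or irradiated library 2 or 3 none fell. KIF20B (-0.61), BUB1 (-0.74), NCAPD2 (-0.46) and PLK4 (-0.46) were the 4.

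Among 23 genes of the BCL2 family and the caspases 1 rose and 1 fell, and 0 or 1 fell when any 1 library was left out. Each gene was counted in 1 list only, so BAX, which rose, is counted with the p53 targets of cell death and not here. BCL2L1, the gene of the antiapoptotic protein BCL-xL (scaffold 19, 31017903 to 31018830, minus strand), held 12.6, 14.8 and 13.8 against 66.3, 54.6 and 59.4 CPM (log2 fold change 2.13 ± 0.11, adjusted p = 0.00024). In the Notch list NOTCH3 rose and MFNG, a glycosyltransferase that tunes Notch receptors, fell from 50.7, 42.2 and 55.2 to 11.6, 19.4 and 19.2 CPM (-1.56 ± 0.21), and the other 20 did not pass. A pair of genes from other lists fell without depending on any 1 library: the stem cell factor receptor KIT, with 7.61, 6.62 and 5.38 against 2.17, 2.10 and 1.73 CPM, and the endothelial cadherin CDH5, with 6.85, 6.12 and 7.61 against 1.99, 1.26 and 1.33 CPM.

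Housekeeping groups changed by small factors. Cytosolic ribosomal protein genes summed to 27003 to 28593 CPM untreated and 22048 to 23199 CPM irradiated, and 16 of 50 fell, beside 4.94% of all genes, 1 rose and the median was -0.34. All irradiated libraries lay below all untreated ones in 42 of the 50, beside 17.9% of all genes. The falls were small, and few passed in most smaller fits. The count was 0 without untreated library 1 or 3 or irradiated library 2, and 3 without untreated library 2 or irradiated library 3. The list median itself stayed between -0.32 and -0.39 when any 1 library was left out. RPS4X held 1658, 1772 and 1636 against 1144, 1128 and 1130 CPM (log2 fold change -0.57 ± 0.09), with adjusted p from 0.062 to 0.079 without untreated library 1 or 3 or irradiated library 2. The exception was RPS19, which rose from 730, 802 and 752 to 1304, 1427 and 1539 CPM (0.90 ± 0.10, adjusted p = 0.0045) and passed without any single library. Ribosomal protein genes have near-identical copies, so how reads were shared among copies could alter these values. Of 31 cholesterol genes 6 fell, beside 4.94% of all genes, and 0 rose, with a median of -0.27. Only 2 or 3 fell without any 1 library other than irradiated library 1. CYP51A1, a demethylase of sterol synthesis, held 77.3, 76.4 and 76.6 against 47.2, 39.3 and 42.4 CPM (-0.84 ± 0.09, adjusted p = 0.0039).

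Of 33 genes of the unfolded protein and ATF4 responses 4 fell, beside 4.94% of all genes tested, 0 rose and the median was 0.08. The 4 take part in amino acid supply: PHGDH (-0.95) and PSPH (-0.82) of serine synthesis, ASNS (-0.85) of asparagine synthesis and the transporter SLC7A1 (-0.56). PHGDH held 312, 409 and 298 against 209, 156 and 162 CPM. None of the 4 passed in all smaller fits: 0 were called without untreated library 1 or irradiated library 2, and 1 without untreated library 2 or 3 or irradiated library 3. Of 26 glycolysis and hypoxia genes 2 were higher, PFKFB3 (0.65) and PFKFB4 (0.51), and neither passed without untreated library 1 or 3 or irradiated library 2 or 3 (adjusted p from 0.077 to 0.15). Of 36 lysosomal genes 0 passed edgeR's test in either direction, with 5 higher and 1 lower at an unadjusted p under 0.05 and 2 higher by DESeq2. Of 48 oxidative phosphorylation genes 0 passed, with 1 higher and 8 lower at an unadjusted p under 0.05, and 1 higher and 2 lower by DESeq2.

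Rows without a gene symbol made up 30 of the rises and 119 of the falls. The largest rise in CPM among all rows that passed was at ENSLAFG00000005976 (scaffold 2, 46460616 to 46535112, plus strand), which lies between STAT6 and NXPH4 and has 13512 bases of exon. It held 755, 582 and 884 CPM untreated and 4165, 5073 and 5324 CPM irradiated (log2 fold change 2.71 ± 0.19, adjusted p = 0.00056). The largest loss among rows without a symbol that passed was at ENSLAFG00000016250 (scaffold 3, 48455382 to 48646222, plus strand), which lies beside PLEKHA3 and has 85354 bases of exon. It held 719, 689 and 736 against 189, 165 and 190 CPM (-1.98 ± 0.10, adjusted p = 0.00024). Both passed without any single library. No source used here gives their names.

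The late effect was then set against the effect at 5 h in 1 fit of all 12 libraries, in which the difference of the effects (24 h minus 5 h, an interaction term) is tested. The comparison asks which late changes differ in size from the early ones. Of 15200 genes 134 (0.882%) passed, 115 (0.757%) with the late effect below the early one and 19 (0.125%) above it. Among the 710 genes that fell at 24 h, 103 (14.5%) passed and all 103 were lower late. The median log2 fold change of the 710 was -0.25 at 5 h and -0.81 at 24 h. Among the 258 that rose, 23 (8.91%) passed, 17 with a larger late effect and 6 with a smaller one, and the medians were 0.32 and 0.82. The 258 and 710 were chosen by their 24 h values, which draws the late medians away from 0. The same 24 h libraries enter the interaction, so this choice also favours passing, with a late effect farther from 0. The 14.5% and 8.91% can therefore not be set against the 0.882% of all genes. The common direction of the 103 is favoured by the choice as well. The 134 became 76 to 168 when 1 library was left out, with 76 without irradiated library 2 at 5 h, 81 and 86 without untreated library 1 and 3 at 24 h, and 82, 87 and 85 without untreated library 1, untreated library 3 and irradiated library 3 at 5 h.

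The falls of B cell genes were mainly late. CD79B held 49.8, 59.7 and 57.6 CPM untreated and 28.7, 41.6 and 40.0 CPM irradiated at 5 h, a log2 fold change of -0.60 ± 0.16 against -3.91 in the same fit at 24 h. The difference was -3.31 ± 0.24 (adjusted p = 2.9e-05). Untreated CD79B was also higher at 24 h than at 5 h, at 91.3, 84.5 and 103 CPM. Untreated CR2 overlapped between the times, at 45.0, 68.0 and 48.6 CPM at 5 h and 61.9, 39.9 and 61.6 CPM at 24 h. The effect on CR2 differed by -3.47 ± 0.34 (adjusted p = 0.00032) and that on PLD4 by -3.30 ± 0.28 (9.6e-05). Of the 22 B cell surface genes 12 had a larger fall at 24 h by this test. Among genes of T and NK cells, CXCR3 fell more at 24 h (difference -1.19 ± 0.23, adjusted p = 0.029), while the differences for GZMA (-1.33 ± 0.33, adjusted p = 0.098) and CTSW (-0.89 ± 0.23, adjusted p = 0.11) did not pass.

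Among p53 targets the late effect was larger for some and smaller for others. MDM2 did not differ detectably, at 2.66 ± 0.11 early and 2.68 late (difference 0.03 ± 0.15, adjusted p = 0.99). TP53INP1, which promotes p53-dependent apoptosis, was raised more at 5 h (2.72 ± 0.12) than at 24 h (1.5), a difference of -1.22 ± 0.17 (adjusted p = 0.0039), while its untreated level went from 28.6, 26.8 and 23.7 CPM at 5 h to 55.1, 53.2 and 57.9 CPM at 24 h. CDKN1A was raised more at 24 h, by 1.24 ± 0.25 (adjusted p = 0.034), but its untreated libraries also moved, from 170, 226 and 253 CPM at 5 h to 57.8, 85.6 and 71.7 CPM at 24 h (scaled over 12 libraries at 5 h and over 6 at 24 h). BCL2L1 differed by 1.16 ± 0.16 (adjusted p = 0.0039), and its untreated level fell likewise, from 98.3, 93.9 and 90.1 to 12.6, 14.8 and 13.8 CPM. The gluconeogenic enzyme FBP1 (difference 1.47 ± 0.28) and the peptidase PHEX (1.68 ± 0.27) differed with little effect at 5 h, at log2 fold changes of -0.20 and -0.01. Their untreated levels were also far apart between the times, at 265, 237 and 163 CPM at 5 h against 12.2, 12.9 and 10.3 CPM at 24 h for FBP1, and 77.3, 69.5 and 54.9 against 10.1, 11.7 and 8.95 CPM for PHEX. For SULF2, whose untreated level went from 2.72, 1.79 and 2.21 to 1.33, 0.265 and 0.683 CPM, the difference was 2.87 ± 0.52, and for IFNG 2.62 ± 0.52. SYBU and KIT had already fallen at 5 h, by 2.61 and 1.29 on the log2 scale, and their difference between times did not pass (adjusted p = 0.80 and 0.75).

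**Figure D5:**
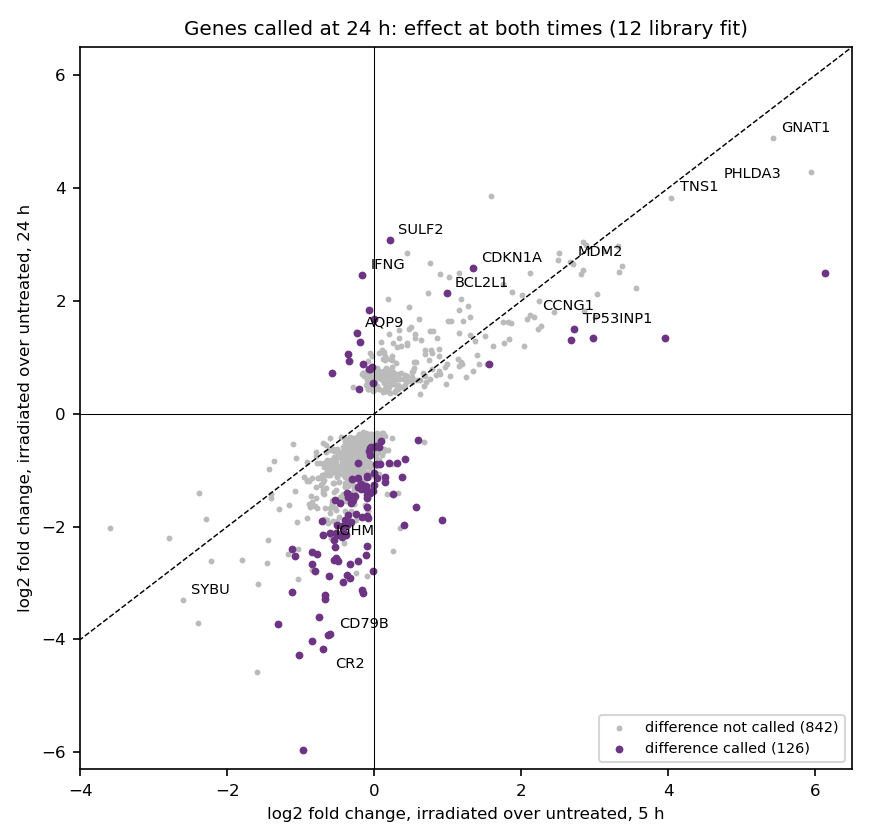
Log2 fold change at 5 h (horizontal axis) and 24 h (vertical axis) in the 12-library fit for the 968 genes that passed at 24 h, with the 126 whose effects differed between times in purple, the rest in grey and equal effects on the dashed line. Most purple points lie below 0 and below the line, such as CR2 (-0.70 early and -4.17 late), and MDM2 lies on the line at 2.66 and 2.68.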

How the data were processed

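RNA was sequenced from 12 blood libraries, of which the 6 of the 24 h groups carry the comparison. Per the file headers, the authors deposited raw read counts per Ensembl gene, one table per time point, and FPKM values beside them. Aligner, counter and strand setting were not given in the sources used here. Reads of genes that overlap on opposite strands may be mixed. Coordinates are printed as the header's L_africana_Jul_2009 assembly gives them; whether they start from 0 or 1 is not stated. The 18 deposited per-sample columns of regularized log values and of FPKM at 5 h were not used.

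Counts were tested with edgeR 4.0.16 in R 4.3.3 (filterByExpr, TMM scaling, quasi-likelihood F test, Benjamini-Hochberg adjustment at 0.05), with no covariate. SEs were derived from the F statistic. The interaction was fitted on all 12 libraries. FPKM served only to compare levels between genes. The steps were tested on simulated data. Alternatives were other scalings and filters, DESeq2 1.42.0, thinning all libraries to 18022475 counts, the replicate block and leaving out each library. The number of libraries and their depth (18022475 to 37356501 counts) limit precision.

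Genes and lists were chosen with earlier results of these data known. The genes named are the 12 largest rises and falls with a mean of at least 1 CPM, the 8 largest CPM differences per direction, up to 4 members per list that passed, 5 interaction genes per direction and a few fixed genes. Genes outside this rule are said to have been named after their values were seen, and some that it selects are not reported here. Of the rows, 2663 carry no symbol.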

Additional observations from a re-analysis of the deposited data

Results flagged for a closer look

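The effect of irradiation differed between the times for 29 of the genes that the naming rule selects, by edgeR's interaction test over 12 libraries with a Benjamini-Hochberg adjusted p below 0.05. The values in brackets are the log2 effect at 24 h minus that at 5 h. Genes known from B cells were the largest set and all had the lower value late: CR2 (-3.47), CD79B (-3.31), MS4A1 (-3.18), TNFRSF13C (-3.03), FCRL1 (-2.63), PAX5 (-2.57), FAM129C (-2.43), POU2AF1 (-1.81), HLA-DOA (-1.46), IGHM (-1.44) and BCL11A (-1.11). Genes known from dendritic cells or macrophages did so too: PLD4 (-3.30), CLEC9A (-3.26), CPVL (-2.03) and WDFY4 (-0.997). Others with a lower value late were ATP8B1 (-2.95), CDH5 (-1.76), TP53INP1 (-1.22), CXCR3 (-1.19) and BARD1 (-0.68), of which TP53INP1 was raised at both times. Higher values late were found for IL23A (0.85), CD9 (0.87), BCL2L1 (1.16), CDKN1A (1.24), FBP1 (1.47), AQP9 (1.67), PHEX (1.68), IFNG (2.62) and SULF2 (2.87). CDKN1A and BCL2L1 were raised at both times. Over all genes tested in this fit 0.882% passed. The 29 cannot be set against that share. The naming rule takes 5 genes per direction by this same test and most others by their 24 h values.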

How the results depend on the processing

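The direction of the 123 genes that the naming rule selects and that passed held in all the alternatives run. Other scalings (RLE, upper quartile, library totals) and filters kept the number of calls within 1.5 times of 968. DESeq2 called 1715 genes (606 higher, 1109 lower), and 1 fit of all 12 libraries called 1670 (508 higher, 1162 lower). Leaving out 1 library gave 293 to 1061 calls, 72 to 308 higher and 221 to 753 lower. Of these 123 genes, DESeq2 called all 123, while 48 lost the call without irradiated library 2 and 44 without untreated library 1. The 134 interaction calls became 354 by DESeq2 and 76 to 168 when 1 library was left out. For lists described with 0 members in 1 direction, other than the lysosomal and oxidative phosphorylation genes, an unadjusted p under 0.05 gave 0 to 3 there and DESeq2 0 or 1. Library totals as the only scaling moved the share of rises among calls from 26.7% to 17.1%.

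Deviations of same-numbered libraries from their group means at 24 h correlated at r = 0.118, -0.396 and 0.648 across 14373 genes, so not every same-numbered pair deviated together and the numbers were not taken to pair the libraries. Libraries 3 of both groups deviated together, and untreated library 1 deviated most like irradiated library 2 (0.426) and untreated library 2 most like irradiated library 1 (0.494). No label links those libraries, and no fit was blocked on them. With a replicate block 707 genes passed (225 higher, 482 lower) and 268 in the interaction. Depth was lowest in irradiated library 3, with 18022475 counts, and genes under 1 CPM gave few calls.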

Other observations

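Among noncoding rows, small nuclear RNAs gave calls at 24 h. Of 69 such rows tested 7 were higher and 0 lower by edgeR's quasi-likelihood test, with a median log2 fold change of 0.51. At an unadjusted p under 0.05, 22 were higher and 0 lower, and DESeq2 called 14 higher and 0 lower. All 7 are spliceosomal U1 or U5 rows, which have near-identical copies, and 0 of the 7 passed in all 6 fits that leave out 1 library. Of 265 small nucleolar RNA rows 0 passed (median 0.16), with 3 higher and 1 lower at an unadjusted p under 0.05 and 0 by DESeq2. Of 80 microRNA precursor rows 0 passed (median 0.19), with 5 higher and 0 lower at an unadjusted p under 0.05 and 1 higher by DESeq2. Over all genes with a mean under 1 CPM the median log2 fold change was 0.48.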
